A study of Mus musculus with 4 samples.

Results

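Circadian clock genes, 10 in number, were followed in bulk RNA of 2 parts of the mouse striatum, the dorsal striatum and the nucleus accumbens. They were the output factors Hlf, Dbp and Tef, the Period genes Per1, Per2 and Per3, the repressors Nr1d1 and Ciart, and the activators Arntl and Npas2. They were taken by symbol from gene count tables, and all 10 were found among 32531 gene rows and were among the 14493 genes that passed a filter on low counts. The mice belonged to the line Drd1-TRAP CP73, named Drd1-EGFP/Rpl10a-CP73 in the sample titles, in which EGFP fused to the ribosomal protein Rpl10a is expressed from the promoter of the dopamine receptor gene Drd1, and they were over 20 months old. All 4 libraries carry this transgene and age and are of the sample type input, 2 libraries from each region, so no young or non-transgenic animals enter the comparison. The labels give no hour of collection, no light schedule and no sex, and they do not say whether the 2 replicates of a region, or the libraries of the same number in the 2 regions, came from separate animals. The p-values therefore measure only the spread between these libraries, which may be technical.

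The circadian clock of a cell is a feedback loop of transcription. The activator ARNTL (BMAL1) pairs with CLOCK, or in the forebrain also with its close relative NPAS2, and binds E-box elements in the promoters of the Period, cryptochrome, Nr1d1 and Dbp genes. PER and CRY proteins then repress the activators, and NR1D1 (REV-ERB alpha) represses Arntl through elements that it shares with the ROR activators. DBP, TEF and HLF are bZIP factors with a proline and acidic amino acid rich (PAR) domain. They bind D-box elements and carry the rhythm to genes outside the loop. In the striatum, clock genes are known for their links to dopamine signalling and reward, and NPAS2 is abundant there.

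The elements named above were looked for in the 250 bases before each transcription start in RefSeq (build GRCm38.p6). The table held starts for 9 of the 10 genes, 12 windows in all, and none for Per2. The letters searched on both strands were CACGTG for the E-box, TTATGTAA and TTACGTAA for the D-box, TAGGTCA for the core of the ROR element, and TGACGTCA for the cyclic AMP response element (CRE). Windows of 5 genes are printed 5′ to 3′ on the strand of the gene because they hold a match, with the matched letters in capitals. They are Hlf at chr11:90390918-90391167 (minus strand), Tef at chr15:81802423-81802672 (plus), Ciart at chr3:95882229-95882478 (minus), the first listed start of Per1 at chr11:69098699-69098948 (plus) and Per3 at chr4:151044666-151044915 (minus).
Hlf: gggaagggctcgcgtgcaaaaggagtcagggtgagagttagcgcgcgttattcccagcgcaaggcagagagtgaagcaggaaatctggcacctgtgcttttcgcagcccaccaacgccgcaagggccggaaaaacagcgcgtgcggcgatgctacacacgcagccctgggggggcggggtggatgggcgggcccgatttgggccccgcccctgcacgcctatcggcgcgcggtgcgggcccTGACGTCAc
Tef: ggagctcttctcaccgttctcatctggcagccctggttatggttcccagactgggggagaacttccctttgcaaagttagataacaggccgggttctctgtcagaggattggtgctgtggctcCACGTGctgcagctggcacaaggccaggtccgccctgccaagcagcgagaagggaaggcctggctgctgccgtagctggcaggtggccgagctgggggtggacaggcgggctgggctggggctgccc
Ciart: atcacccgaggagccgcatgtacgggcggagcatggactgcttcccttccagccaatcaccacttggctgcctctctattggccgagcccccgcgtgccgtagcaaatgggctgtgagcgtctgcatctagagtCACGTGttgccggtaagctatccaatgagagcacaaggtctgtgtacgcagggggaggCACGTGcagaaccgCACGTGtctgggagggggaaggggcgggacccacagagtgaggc
Per1: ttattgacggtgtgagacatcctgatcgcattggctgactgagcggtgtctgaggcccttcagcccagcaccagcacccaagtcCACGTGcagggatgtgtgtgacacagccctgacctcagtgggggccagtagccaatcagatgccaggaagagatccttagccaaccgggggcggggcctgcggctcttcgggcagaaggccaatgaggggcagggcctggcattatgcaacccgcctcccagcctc
Per3: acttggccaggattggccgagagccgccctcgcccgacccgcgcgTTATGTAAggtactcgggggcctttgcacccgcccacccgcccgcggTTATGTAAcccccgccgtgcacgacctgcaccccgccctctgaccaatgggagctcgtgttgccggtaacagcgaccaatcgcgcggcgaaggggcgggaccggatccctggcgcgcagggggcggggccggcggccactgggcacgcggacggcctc

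Positions are those of the first base of a match, counted back from the start site. Hlf held a CRE at −9 and none of the other letters. Tef held an E-box at −127, and its second start held another at −138. Ciart held 3 E-boxes, at −116, −58 and −44, more than any other of the 12 windows. Per1 held 1 E-box at −166. Per3 held the D-box TTATGTAA at −205 and at −158, and no E-box. The windows of Dbp, Nr1d1, Arntl and Npas2 and the second start of Per1 held none of these letters, which says nothing of the rest of those genes. Of all 32851 windows of the table, 6.02% held the E-box, 0.819% TTATGTAA, 0.113% TTACGTAA, 2.23% the ROR core and 1.55% the CRE. A match of letters is a description of the sequence and not a bound site.

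The libraries held 8478403 to 11849134 counts in genes, and a count of 3 corresponded to 0.253 to 0.354 CPM, the unit of counts relative to library size. The ribosomal RNA gene Rn45s took 2.03% and 3.34% of the counts in the dorsal libraries against 5.61% and 5.94% in those of accumbens, and its part in the differences below was not tested. Levels below are CPM scaled by trimmed mean of M values (TMM), and differences are log2 fold changes of accumbens over dorsal striatum from edgeR's quasi-likelihood test, with the adjusted p taken over all 14493 genes and a threshold of 0.05. In bulk RNA, fewer cells of a type and less RNA per cell cannot be told apart. All 10 markers of spiny projection neurons, the main striatal cell type, were detected. Their summed level was 6455 and 6575 CPM in dorsal striatum and 5801 and 4765 CPM in accumbens. Log2 fold changes were positive for 4 of them and negative for 6. The single call among them was lower in accumbens, as were 0.290% of all tested genes. Of 9 genes used as markers of suprachiasmatic and hypothalamic neurons, 5 (Vip, Avp, Six6, Nms and Lhx1) did not pass the low-count filter, and the other 4 summed to between 14.5 and 40.5 CPM. Cortical glutamatergic markers, of which 9 of 10 were tested, summed to 164 and 74.6 CPM in dorsal striatum and 388 and 226 CPM in accumbens. Their highest gene by mean level, Slc17a7, stood at 32.3 and 0.717 CPM against 198 and 79.4 CPM, and the next, Rorb (also a ROR gene of the clock pathway), at 64.4 and 49.97 CPM against 87.3 and 53.6 CPM. The part of these cortical transcripts in the differences below was not tested.

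The clock genes did not differ between the regions in one direction. All 3 PAR bZIP genes had lower values in both accumbens libraries than in either dorsal striatum library, while Nr1d1, Ciart, Per1 and Npas2 had higher values in both. Only the difference of Hlf passed the threshold. This makes 1 of 10 genes called, lower in accumbens, against 1.28% of all tested genes called in either direction, 0.994% higher and 0.290% lower in accumbens. At an unadjusted p under 0.05 there were 6 of the 10 genes, 4 higher and 2 lower, where 19.2% of all genes lay. The libraries of the 2 regions did not overlap for 9 of the 10 genes, as for 51.2% of all tested genes. The median size of the log2 fold change, regardless of sign, was 0.57 over the 10 genes and 0.36 over all tested genes, and the signed medians were −0.27 and 0.02. The 10 genes were chosen with earlier results of these data known, so these comparisons with all genes are descriptions and not a test of clock genes.

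**Figure D1:**
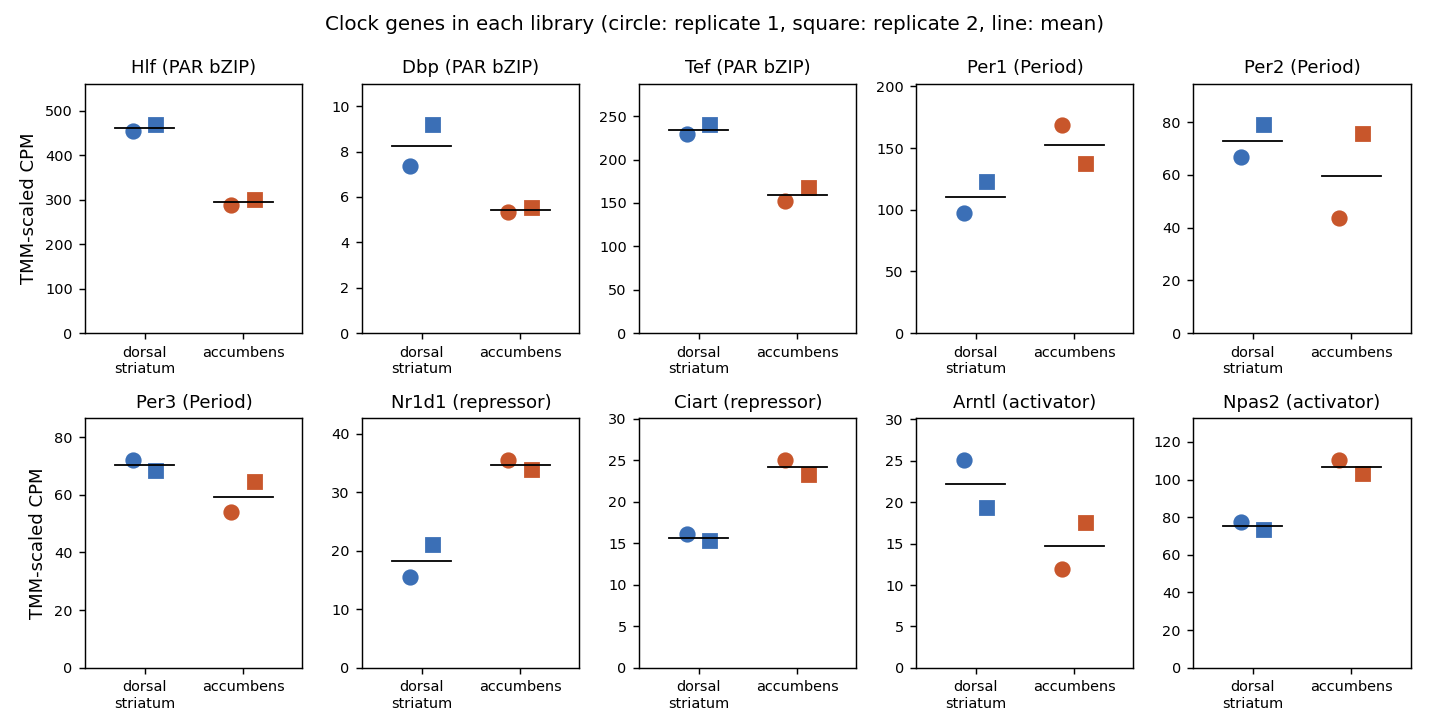
TMM-scaled CPM (vertical axis, from 0, a separate scale for each gene) of the 10 clock genes in the 2 dorsal striatum and 2 accumbens libraries; circles are replicate 1, squares replicate 2 and lines the mean of a region. The accumbens points lie below both dorsal striatum points for Hlf, Dbp, Tef, Per3 and Arntl, above both for Per1, Nr1d1, Ciart and Npas2, while for Per2 one lies below both and the other between them.

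Hlf, which encodes hepatic leukemia factor (GRCm38 chromosome 11, 90336536 to 90390895, minus strand), was at 453 and 467 CPM in dorsal striatum replicates 1 and 2 and at 289 and 300.0 CPM in accumbens replicates 1 and 2. The 2 libraries of each region stood close together, and the regions were far apart by comparison. The means were 460.2 ± 9.62 and 294 ± 8.07 CPM (SD, n = 2 each), a log2 fold change of −0.64 (SE 0.12, 95% interval −0.91 to −0.38, edgeR adjusted p = 0.0458), that is 1.56-fold higher in dorsal striatum. Its p ranked 156 among all tested genes, of which 186 passed. The call was lost with DESeq2 size factors (adjusted p = 0.0512), with an offset for GC content (0.0677) or transcript length (0.0506), and without dorsal striatum replicate 1 (0.074) or 2 (0.139), while the log2 fold change stayed between −0.82 and −0.55 over all 13 alternatives.

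Tef, which encodes thyrotroph embryonic factor (chromosome 15, 81802421 to 81826863, plus strand), was at 229.5 and 239.6 CPM in dorsal striatum and 152 and 167 CPM in accumbens. Both accumbens values lay below both dorsal striatum values. At a log2 fold change of −0.56 (SE 0.13, 95% interval −0.85 to −0.26), Tef missed the threshold (edgeR adjusted p = 0.0807). It passed in 6 of 13 alternatives, among them DESeq2 (adjusted p = 0.0052) and scaling by library size alone (0.0426). The latter took the median over all genes from 0.02 to −0.15, the direction of the Tef difference.

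Hlf and Tef stood in nearly the same proportion in all 4 libraries. Within a library, Hlf counts were 1.98 and 1.95 times Tef counts in dorsal striatum and 1.90 and 1.80 times in accumbens. These ratios are of raw counts in the same library and do not depend on the scaling. Both accumbens ratios were the lower ones, with a mean difference of −0.09 on the log2 scale, small beside the difference of either gene between regions.

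Dbp, the D-box binding protein gene (chromosome 7, 45705088 to 45710203, plus strand), had the fewest reads of the 10 genes, with 70 and 115 counts in the dorsal striatum libraries and 43 and 44 in those of accumbens. These correspond to 7.36 and 9.16 CPM and to 5.33 and 5.50 CPM. The accumbens values were the lower ones, and the log2 fold change of −0.61 was close to those of Hlf and Tef, but its 95% interval ran from −1.56 to 0.34 (edgeR adjusted p = 0.472). The likeness in size was not kept with the offset for GC content, which gave −0.91 for Dbp, −0.55 for Hlf and −0.62 for Tef. The Dbp transcript is GC-rich, at 61.6%, and tested genes in its decile of GC content had a median log2 fold change of 0.31. In GENCODE, 18.0% of the exon bases of Dbp are also exon bases of Sphk2 on the opposite strand, and the strand setting of the counting is not given in the sources used here. Reads there cannot be assigned to one of the 2 genes without strand. Sphk2 itself was at 14.5 and 14.4 CPM in dorsal striatum and 15.5 and 15.9 CPM in accumbens, a log2 fold change of 0.12 (edgeR adjusted p = 0.871).

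The 3 Period genes, whose proteins form the repressor complex of the loop, went separate ways. Per1 (chromosome 11, 69095217 to 69109960, plus strand) was at 97.7 and 123 CPM in dorsal striatum and 169 and 137 CPM in accumbens. Accumbens replicate 1 was the highest of the 4 libraries and dorsal striatum replicate 1 the lowest. The log2 fold change of 0.47 (SE 0.17, 95% interval 0.08 to 0.87) did not pass (edgeR adjusted p = 0.191). It came to 0.21 with the offset for GC content, and to 0.30 with library size alone, where the regions overlapped. Library size alone also took the median over all genes from 0.02 to −0.15. Leaving out replicate 1 gave 0.30 for the dorsal striatum library and 0.31 for the accumbens library. Leaving out accumbens replicate 2 gave 0.61. The Per1 transcript is GC-rich, at 59.4%, and the tested genes in its decile of GC content, the highest, had a median log2 fold change of 0.31.

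Per2 (chromosome 1, 91415982 to 91459324, minus strand) was at 66.7 and 78.9 CPM in dorsal striatum and 43.5 and 75.6 CPM in accumbens. The 2 accumbens libraries lay on either side of the lower dorsal striatum value, so the regions overlapped. Per2 had a log2 fold change of −0.29 (SE 0.26, 95% interval −0.88 to 0.30, edgeR adjusted p = 0.590). It turned to 0.05 when accumbens replicate 1 was left out, and replicate 2 left out instead gave −0.75, so 1 library decided its direction.

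Per3 (chromosome 4, 151003652 to 151044665, minus strand) was at 72.1 and 68.3 CPM in dorsal striatum and 54.1 and 64.3 CPM in accumbens. The regions did not overlap, by a margin of a few CPM. Per3 had a log2 fold change of −0.25 (SE 0.17, 95% interval −0.64 to 0.15, edgeR adjusted p = 0.486), and −0.13 without accumbens replicate 1. Counts of Per1 were 1.46 and 1.55 times those of Per2 in the dorsal striatum libraries, and 3.88 and 1.81 times in the accumbens libraries, so this proportion was higher in both accumbens libraries and far from equal between them.

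Per1 is also known as a gene that responds to neuronal activity and to glucocorticoids, and genes of both responses were read in the same libraries. The 11 immediate early genes summed to 619 and 766 CPM in dorsal striatum and 1138 and 677 CPM in accumbens, and 10 of them had a positive log2 fold change (median 0.73) but none passed in edgeR (4 at an unadjusted p under 0.05, all higher). Of all tested genes, 10.9% were higher at that p and 51.4% had a positive value. Egr1 was at 392 and 441 against 596 and 369 CPM, and Nr4a1 at 51.3 and 72.6 against 128 and 77.4 CPM. For both, as for Per1, accumbens replicate 1 was the highest library. The 10 glucocorticoid-responsive genes summed to 254 and 242 against 308 and 338 CPM, and 8 of them had a positive log2 fold change (median 0.52). None passed the threshold in edgeR (3 at an unadjusted p under 0.05, all higher, beside the same 10.9% of all genes). Their most abundant members were Sgk1 at 87.5 and 82.2 against 93.2 and 129.9 CPM and Errfi1 at 47.8 and 47.3 against 56.6 and 31.1 CPM. The part of either response in the Per1 values was not tested.

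The repressors Nr1d1 and Ciart both had higher values in the accumbens libraries. Nr1d1, the gene of the nuclear receptor REV-ERB alpha (chromosome 11, 98767932 to 98775333, minus strand), was at 15.6 and 20.96 CPM in dorsal striatum and 35.6 and 33.8 CPM in accumbens. The accumbens libraries agreed within counting error, and both lay well above the dorsal striatum libraries, which differed from each other 1.35-fold. The log2 fold change of 0.92 (SE 0.25, 95% interval 0.35 to 1.49), or 1.89-fold, did not pass (edgeR adjusted p = 0.109). It passed in 5 of 13 alternatives, including DESeq2 (0.0401), and its size ranged from 0.71 to 1.15, the values without dorsal striatum replicate 1 and replicate 2. With the GC offset it was 0.73, where genes in its GC decile had a median of 0.22.

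In GENCODE, 8.5% of the exon bases of Nr1d1 are shared with the thyroid hormone receptor gene Thra on the opposite strand. Thra was at 274 and 282.5 CPM in dorsal striatum and 321 and 304 CPM in accumbens, a log2 fold change of 0.17 (edgeR adjusted p = 0.495). Thra is by far the more abundant of the 2 genes. How many reads of the shared bases were counted to Nr1d1 was not tested.

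Ciart, which encodes a repressor of the ARNTL dimers also known as CHRONO (chromosome 3, 95878503 to 95882251, minus strand), was at 16.1 and 15.2 CPM in dorsal striatum and 25.0 and 23.3 CPM in accumbens. The replicates of each region differed by less than counting error. Ciart had a log2 fold change of 0.63 (SE 0.25, 95% interval 0.04 to 1.21, edgeR adjusted p = 0.231), a 1.54-fold higher level in accumbens that did not pass. Its depth, 153 to 202 counts per library, was about as low as that of Nr1d1, at 148 to 287.

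The activators differed from each other. Arntl (chromosome 7, 113207465 to 113314126, plus strand) was at 25.1 and 19.3 CPM in dorsal striatum and 11.9 and 17.5 CPM in accumbens. The regions did not overlap, but the replicates of each region lay far apart. The log2 fold change was −0.59 (SE 0.31, 95% interval −1.30 to 0.12, edgeR adjusted p = 0.341). It depended on the accumbens library kept, with −0.34 when replicate 1 was left out and −0.90 when replicate 2 was.

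Npas2 (chromosome 1, 39193731 to 39363236, plus strand) was at 77.4 and 73.0 CPM in dorsal striatum and 110.4 and 103 CPM in accumbens. Replicates agreed within counting error in both regions, and the regions stood apart. The log2 fold change was 0.50 (SE 0.15, 95% interval 0.16 to 0.85), 1.42-fold, which did not pass (edgeR adjusted p = 0.127). It was 0.33 with library size alone, a scaling under which the median over all genes went from 0.02 to −0.15, so that the distance of Npas2 from this median stayed nearly the same.

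**Figure D2:**
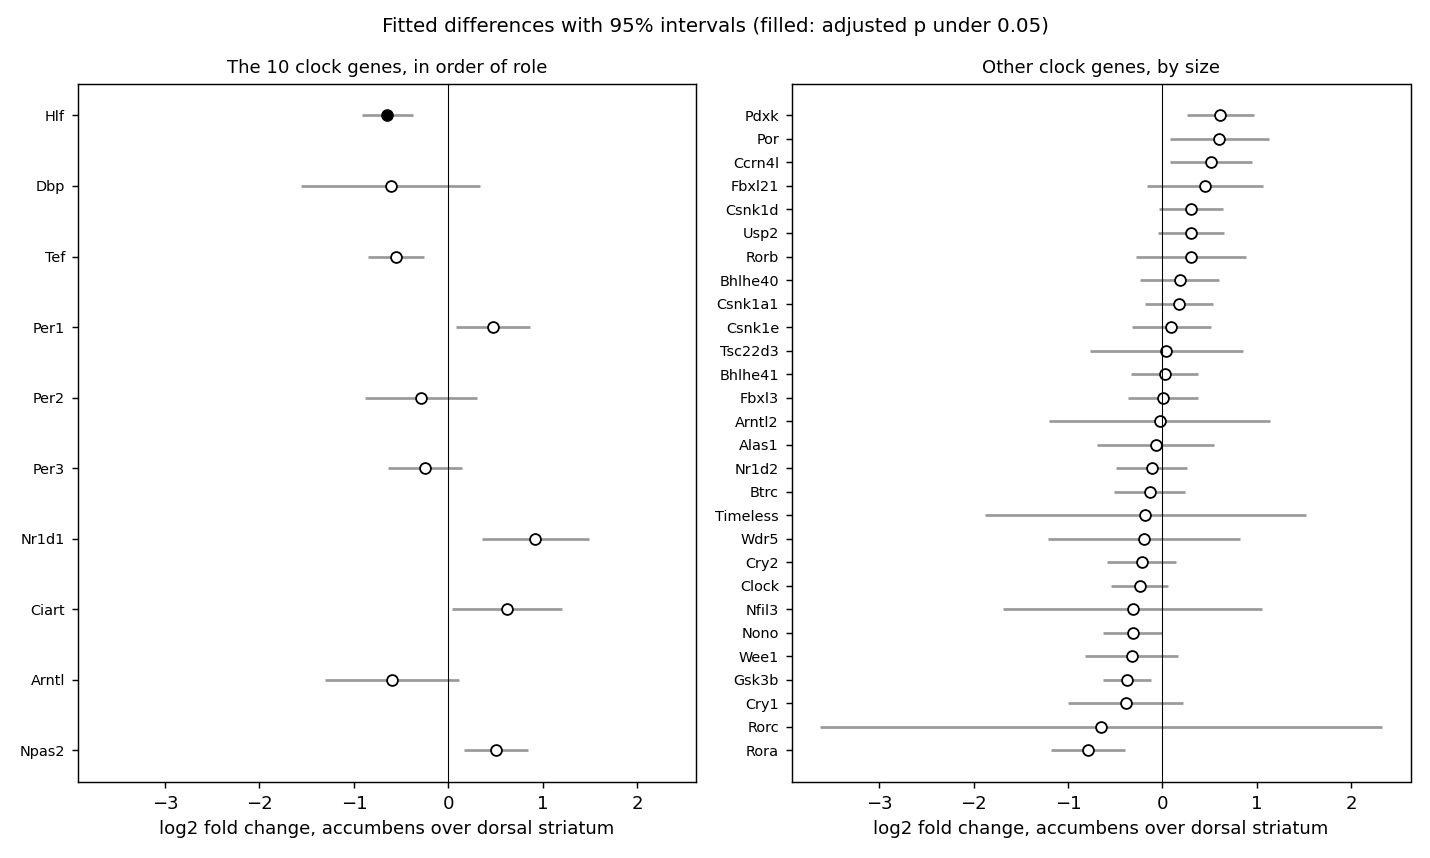
Log2 fold change of accumbens over dorsal striatum (horizontal axis) with 95% intervals from the edgeR fit, for the 10 clock genes on the left and 28 other genes of the clock pathway on the right; filled points passed an adjusted p of 0.05. Hlf at −0.64 is the single filled point, and among the 10 genes the intervals of Tef, Per1, Nr1d1, Ciart and Npas2 also lie on one side of 0.

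The partners of the activator dimer were compared within libraries. Npas2 counts were 0.360 and 0.361 times those of its relative Clock in dorsal striatum and 0.656 and 0.557 times in accumbens. Npas2 counts were 3.08 and 3.79 times those of Arntl in dorsal striatum and 9.28 and 5.89 times in accumbens. In both ratios the 2 regions did not overlap, as was so for 51.2% of all tested genes taken singly. The share over all pairs of genes was not computed, here or for the ratios below. Ratios of raw counts between genes also carry the transcript lengths, so they show a change of proportion between libraries and not which transcript was the more abundant.

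The output factors, the Period genes and the repressors were set against the activators in the same way. Counts of Nr1d1 were 0.619 and 1.09 times those of Arntl in the dorsal striatum libraries and 2.99 and 1.93 times in the accumbens libraries. Ciart over Arntl was 0.640 and 0.789 against 2.10 and 1.33, and Per1 over Arntl was 3.89 and 6.36 against 14.2 and 7.84. For Hlf over Arntl the values were 18.1 and 24.2 in the dorsal libraries and 24.3 and 17.1 in the accumbens libraries, and Tef, Dbp and Per2 over Arntl overlapped between regions in the same manner. Per3 over Arntl, at 2.87 and 3.54 against 4.55 and 3.67, also stood higher in both accumbens libraries, although Per3 itself had the lower CPM there. Relative to Arntl, then, Nr1d1, Ciart, Per1 and Per3 stood higher in accumbens, while the PAR bZIP genes and Per2 did not stand apart. Relative to Npas2, Hlf went from 5.85 and 6.40 in dorsal striatum to 2.62 and 2.91 in accumbens and Tef from 2.96 and 3.28 to 1.38 and 1.62. Ciart over Npas2 was slightly higher in both accumbens libraries, at 0.208 and 0.209 against 0.227 and 0.226. Per3 over Npas2 was lower in both accumbens libraries, at 0.931 and 0.936 against 0.49 and 0.624, as were Per2 and Dbp. Per1 over Npas2 overlapped between regions. Nr1d1 over Npas2 was higher in accumbens, at 0.201 and 0.287 against 0.322 and 0.328. The place of Per1 and Per3 thus depended on the activator used. With 2 libraries a region the smallest two-sided p of an exact permutation test is 0.33, so these ratios are given without a test.

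**Figure D3:**
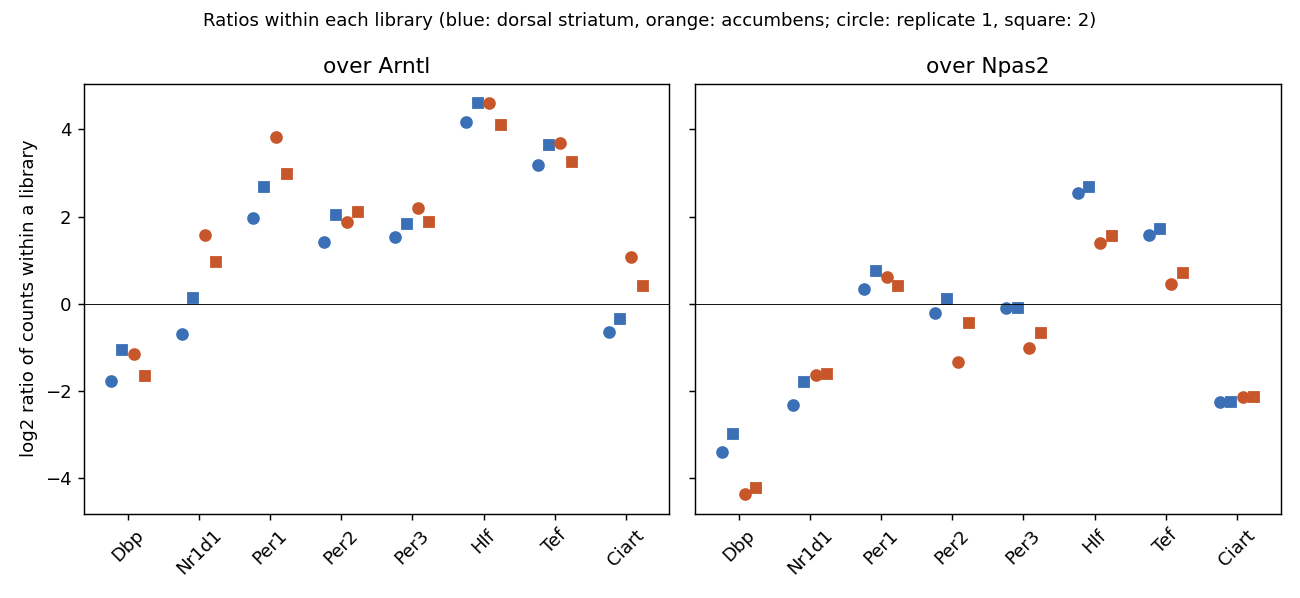
Log2 ratio of raw counts within each library (vertical axis) of 8 clock genes over Arntl on the left and over Npas2 on the right; blue is dorsal striatum, orange accumbens, circles replicate 1 and squares replicate 2. Over Arntl, Nr1d1 and Ciart stand higher in both accumbens libraries while Hlf and Tef overlap; over Npas2, Hlf, Tef and Dbp stand lower in both accumbens libraries.

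Levels of different genes can be compared only per length of transcript. Per kilobase of the longest protein-coding transcript, Hlf was the most abundant of the 10 genes in both regions, with 81.6 CPM per kb in dorsal striatum and 52.2 CPM per kb in accumbens, and Dbp the least, with 4.50 and 2.95 CPM per kb. In dorsal striatum the order after Hlf was Tef (53.3 CPM per kb), Per1 (23.6), Npas2 (17.8), Per2 (12.5), Per3 (11.7), Ciart (8.07), Arntl (7.46) and Nr1d1 (6.71). Of neighbours in this order, the library values of Per2 and Per3, of Ciart and Arntl, and of Arntl and Nr1d1 overlapped. In accumbens the order after Hlf was Tef (36.2 CPM per kb), Per1 (32.7), Npas2 (25.2), Nr1d1 (12.7), Ciart (12.5), Per2 (10.2), Per3 (9.87) and Arntl (4.94), with overlapping libraries for Tef and Per1 and for each neighbouring pair from Nr1d1 to Per3. Nr1d1 stood below Per2 and Per3 in both dorsal striatum libraries, and in accumbens it stood above Per3 and overlapped Per2.

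The replicates of a region differed for some of these genes more than for others. Between the dorsal striatum libraries no gene of the 10 was past a ratio of 1.5-fold, where 14.6% of all tested genes were, and between the accumbens libraries Per2 alone was, where 37.7% of all tested genes were. Among the 9729 genes in the same range of mean level as the 10, these shares were 5.27% and 24.7%. The median size of the log2 ratio was 0.16 over the 10 genes in dorsal striatum and 0.12 in accumbens, beside 0.21 and 0.40 over all genes tested. The genes in the same range of level had medians of 0.17 and 0.31. Per2 was 1.74-fold higher in accumbens replicate 2 than in replicate 1, Arntl 1.47-fold, Per3 1.19-fold and Tef 1.10-fold higher, while Per1 was 1.23-fold higher in replicate 1, and none of these intervals for counting error reached 1. In dorsal striatum Arntl was 1.30-fold higher in replicate 1, while Nr1d1 was 1.35-fold, Per1 1.25-fold and Per2 1.18-fold higher in replicate 2, all beyond counting error. Hlf, Ciart and Npas2 agreed within counting error in both regions. Dbp did so too, but it was 1.25-fold higher in dorsal striatum replicate 2, where its 70 and 115 counts leave a wide counting error.

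**Figure D4:**
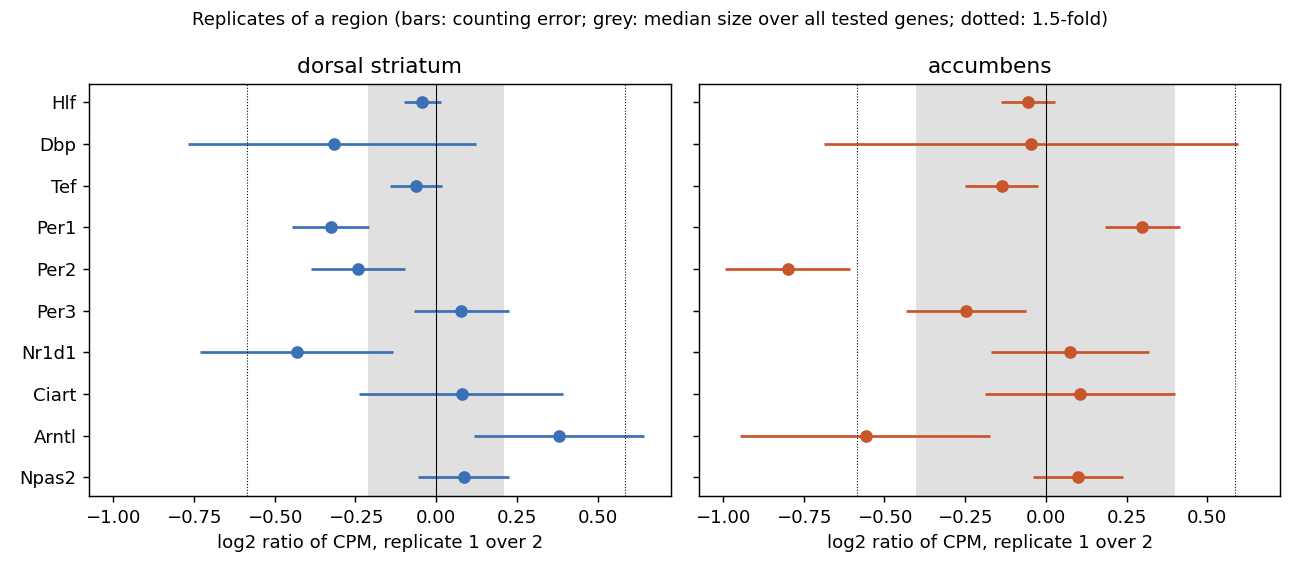
Log2 ratio of CPM of replicate 1 over replicate 2 (horizontal axis) for the 10 clock genes in each region, with exact binomial intervals that cover counting error only; the grey band is the median size over all tested genes and the dotted lines mark 1.5-fold. Per2 in accumbens is the only point beyond a dotted line, and Hlf, Ciart and Npas2 lie close to 0 in both regions.

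Other genes of the pathway were read from 3 lists, and none of the 28 tested genes passed the threshold in edgeR (6 at an unadjusted p under 0.05, 3 higher and 3 lower), while DESeq2 called 3 (6.44% of all genes) and limma-voom 1 (2.97%). The share of all genes at that unadjusted p was 19.2%, close to 6 of 28. Of the 28 genes, 12 had regions that did not overlap, a smaller share than the 51.2% of all genes. Their median log2 fold change was −0.05. Noct is not among the gene rows by that symbol, and its older symbol Ccrn4l is.

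Of 11 other clock transcription factors and cryptochromes, 8 had a negative log2 fold change. Rora, the ROR activator that opposes NR1D1 at shared elements, was at 148 and 127 CPM in dorsal striatum and 88.5 and 71.1 CPM in accumbens. Both accumbens values lay below, and the log2 fold change of −0.79 (SE 0.17) missed the threshold (edgeR adjusted p = 0.0668), with calls in DESeq2 and in limma-voom. Set against Rora, Nr1d1 had 0.105 and 0.165 times the counts in dorsal striatum libraries and 0.402 and 0.475 times in accumbens libraries. Nr1d2, the relative of Nr1d1, was at 117 and 103 CPM against 112 and 90.9 CPM, with a log2 fold change of −0.12. Clock (215 and 202 against 168 and 185 CPM), Cry1 (22.7 and 23.7 against 15.2 and 20.1 CPM) and Cry2 (164 and 189.9 against 136 and 167.5 CPM) had log2 fold changes of −0.24, −0.39 and −0.22, none past the threshold (edgeR adjusted p = 0.363, 0.476 and 0.497).

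Of 11 kinases, ubiquitin ligase genes and cofactors that act on clock proteins, 6 had positive and 5 negative values. Gsk3b, a kinase gene, was at 1051 and 1038 CPM against 766 and 846 CPM (log2 fold change −0.37, edgeR adjusted p = 0.128). Nono, a cofactor of PER proteins, was at 169 and 169 against 128 and 143 CPM (−0.32), the casein kinase gene Csnk1d at 96.6 and 107 against 119 and 132 CPM (0.31), and Usp2, a deubiquitinase gene under clock control, at 78.9 and 73.6 against 90.6 and 97.9 CPM (0.31). These 4 were named for their small p, and their regions did not overlap, as for 51.2% of all genes. None passed in edgeR, and DESeq2 called Gsk3b.

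Of 6 tested clock-controlled genes, 4 had positive values. Pdxk, the pyridoxal kinase gene known as a target of the PAR bZIP factors, was at 229 and 278 CPM in dorsal striatum and 351 and 426 CPM in accumbens, opposite in direction to Hlf, Tef and Dbp (log2 fold change 0.61, SE 0.15, edgeR adjusted p = 0.0906, with a call in DESeq2). In GENCODE 39.0% of its exon bases are shared with a gene on the opposite strand. Por, the P450 oxidoreductase gene, was at 36.9 and 40.9 against 47.4 and 70.8 CPM (0.60, edgeR adjusted p = 0.204), the deadenylase gene Ccrn4l at 32.6 and 35.9 against 46.3 and 51.5 CPM (0.51, edgeR adjusted p = 0.196), and the kinase gene Wee1 at 34.8 and 38.3 against 31.96 and 26.4 CPM (−0.33, edgeR adjusted p = 0.460).

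**Figure D5:**
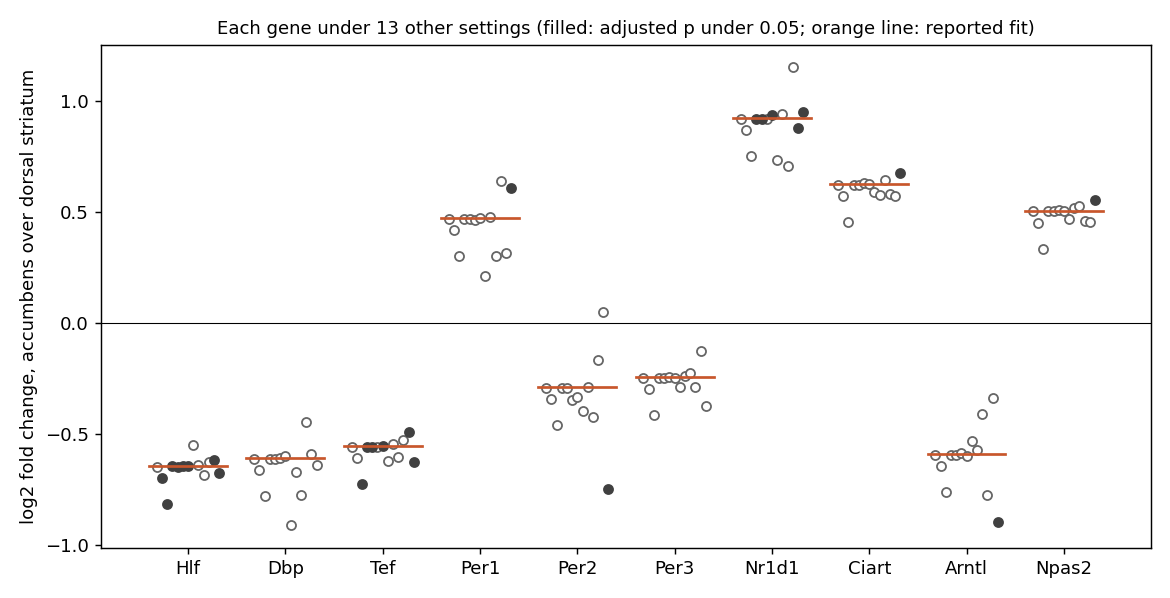
Log2 fold change of accumbens over dorsal striatum (vertical axis) of each of the 10 clock genes under 13 other settings of scaling, filter, tool, offsets and left-out libraries; filled points had an adjusted p under 0.05 and the orange line is the reported fit. Only Per2 crosses 0, at 0.05 without accumbens replicate 1, and Hlf, Tef and Nr1d1 hold most of the filled points.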

How the data were processed

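Each library has 1 deposited table of raw read counts by gene symbol. Alignment used STAR 2.0.0e and counting HTSeq on mm10, per the submitters' processing notes. Annotation and strand setting: not given in the sources used here.

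Rows that name no gene (27.5% to 35.4% in no feature, 6.06% to 9.46% ambiguous, 6.98% to 10.2% aligned more than once) were left out. Genes kept by filterByExpr were scaled with TMM and compared by quasi-likelihood tests in edgeR 4.0.16 (R 4.3.3), two-sided, with region as the only term and Benjamini-Hochberg adjustment over 14493 genes. Standard errors (SE) follow from the log2 fold change and its F statistic. Intervals between replicates are exact binomial (Clopper-Pearson, 95%) and cover counting error only, since reads without molecular identifiers are not independent molecules. Lengths, GC content, coordinates and exon overlaps came from GENCODE M21 (GRCm38, the build of mm10) and were known for 85.7% of tested genes. GC and length offsets were lowess trends (span 0.3) of each library. The procedure was checked on simulated data.

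Alternatives were 3 scalings, no filter, DESeq2 1.42.0, limma-voom (limma 3.58.1), a replicate block, both offsets and each library left out. The 10 genes and the lists were chosen with earlier results of these data known. The text names all 10 genes, up to 4 pathway genes per list by smallest p (Nr1d2 was added after its values were seen), and the 2 most abundant genes of the lists of cortical neurons, activity and glucocorticoid response. The lists of astrocytes (8 genes, summed CPM 2080 to 3386), oligodendrocytes (8, 1598 to 2701), microglia (6, 39.2 to 65.8) and vascular cells (5 of 6 tested, 18.2 to 52.2) were read as well. They held 1 call, an astrocyte gene higher in accumbens, where 0.994% of all tested genes were called higher. Log2 fold changes were positive for 5 of 8 astrocyte genes (median 0.17) and 7 of 8 oligodendrocyte genes (0.31). They were positive for 5 of 6 microglia genes (0.46) and 2 of 5 vascular genes (−0.14), beside 51.4% of all tested genes. The part of these cell types in the differences was not tested.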

Additional observations from a re-analysis of the deposited data

How the results depend on the processing

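Directions of 9 of the 10 clock genes were the same under all 13 alternatives. Per2 was the exception, at a log2 fold change of 0.05 without accumbens replicate 1 and of −0.75 without accumbens replicate 2. The 1 call among the 10 genes became 0 with DESeq2 size factors or with the offset for GC content or for length. It became 2 with library size alone, 3 with no filter and 3 with DESeq2. With a library left out, the remaining library is assumed to vary as the other region does, so those calls are not counted here. Such fits are among the alternatives in which Tef and Nr1d1 passed. The 0 calls among 28 other clock genes became 1 with library size alone, 2 with no filter, 3 with DESeq2 and 1 with limma-voom, and 0 to 5 with a library left out. All tested genes gave 186 calls, against 1203 with no filter, 933 with DESeq2, 431 with limma-voom, 119 with the GC offset and 109 to 4464 with a library left out. Library size alone gave 72 higher and 172 lower calls and upper-quartile scaling 128 and 62, against 144 and 42. With library size alone the regions did not overlap for 8 of the 10 genes (53.5% of all genes), as Per1 then overlapped too. With the replicate number as a block, 3 of the 10 genes (Hlf, Tef and Nr1d1), 2 other clock genes and 843 of all genes were called, but same-numbered libraries barely deviated together (correlation over genes 0.03), so the numbers were not taken to pair them. Depth limits Dbp most, at 43 to 115 counts per library.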
